A study of Mus musculus with 8 samples.

Results

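Described here are the genes whose level differed between the PPK and PP genotypes in the same direction in sham mice and in mice after ADT. A gene was taken when PPK minus PP, on a log2(FPKM + 1) scale, had the same sign in both settings and a size of at least 0.58 in each. FPKM is a read level scaled for gene length and library size. Of 55335 genes listed, 14000 reached 1 FPKM in at least 2 libraries, and 507 of these (3.62%) met the rule, 230 higher and 277 lower in PPK. The rule uses both genotype differences, so these differences and their sizes are given below as a description, with no test.

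The 8 libraries came from mouse prostate epithelium sorted as EpCAM+, CD24A+ and CD49Flow cells, and fall into 4 groups of 2, marked A and B. All mice shared 1 prostate genotype, abbreviated PP in the labels, to which the PPK mice added Kmt2cPC-/-. PP sham and PPK sham mice were 3.5 months old, and PP ADT and PPK ADT mice were 6.5 months old, so treatment and age changed together. ADT commonly stands for androgen deprivation therapy, and the labels state neither how it was done, nor what drives the deletions that "PC" marks, nor whether A and B are separate animals. Among genes at 100 FPKM or more, A and B of a group differed by a median of 2.03 to 2.58%, so the spread behind every p-value below may be technical.

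Kmt2c encodes a histone methyltransferase of the COMPASS family, best known for placing the monomethyl mark on histone H3 lysine 4 at enhancers. Prostate epithelium holds luminal cells, marked by Krt8 and Krt18, and basal cells, marked by Krt5 and Krt14. Luminal cells depend on androgen for secretion, and ADT lowers many of their secretory genes. The series compares the genotypes under both treatments, and the question here is which genotype differences are present in each.

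Kmt2c itself (ENSMUSG00000038056, chromosome 5, 25271798 to 25498783, GRCm38) had levels of 13.3 and 13.9 FPKM in PP sham against 8.67 and 8.15 FPKM in PPK sham. In ADT mice its levels were 10.3 and 9.33 FPKM (PP) against 6.6 and 6.36 FPKM (PPK). It was lower in every PPK library than in every PP library of the same treatment, by -0.63 ± 0.066 (SE) in sham and -0.53 ± 0.066 in ADT, so that it falls just outside the rule. With median-of-ratios scaling of the libraries the ADT value was -0.59, inside it. The value covers the whole gene, exons outside the deleted part included.

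Markers of the sorted cells moved with genotype, which bears on every gene below. Cd24a, used in the sort, was at 551 and 541 FPKM in PP sham, 389 and 395 in PPK sham, 514 and 510 in PP ADT, and 322 and 316 in PPK ADT. Itga6, which encodes CD49f, was at 25.9 and 26.6, 17.9 and 16.8, 34.2 and 32.6, and 33.9 and 34.4 FPKM. Cd24a was thus lower in PPK at both treatments, and Itga6 in sham. Epcam stood at 506 to 565 FPKM in the sham libraries, 462 and 470 in PP ADT, and 310 and 315 in PPK ADT. Krt8 was at 1263 and 1264 FPKM in PP sham, 1337 and 1346 in PPK sham, 1856 and 1883 in PP ADT, and 294 and 286 in PPK ADT. Krt5 was at 30.0 and 27.1, at 22 and 21, at 94.3 and 96.8, and at 3242 and 3243 FPKM in these 4 groups. The PPK ADT libraries thus carry high basal keratin and low luminal keratin, whereas the PPK sham libraries do not. In bulk RNA, a change in the share of a cell type and a change of RNA per cell cannot be told apart. The part of these markers in the genotype differences was not tested.

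The largest share of the genes that differed in sham did not reach 0.58 in ADT, and the rest kept or turned their sign. In sham, 942 genes (6.73% of those tested) were at least 0.58 higher in PPK and 804 (5.74%) at least that much lower. In ADT the counts were 2827 (20.2%) and 2225 (15.9%). Of the genes past 0.58 in both settings, 507 (51.5%) kept the sign and 477 (48.5%) had opposite signs, 333 of them higher in sham and lower in ADT. The 230 genes higher in both made up 24.4% of the sham list and 8.14% of the ADT list of higher genes. The 277 genes lower in both made up 34.5% and 12.4% of the lists of lower genes. Of the genes higher in sham, 40.2% were under 0.58 in size in ADT and 35.4% were opposite, and of those lower in sham, 47.6% and 17.9%.

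**Figure D1:**
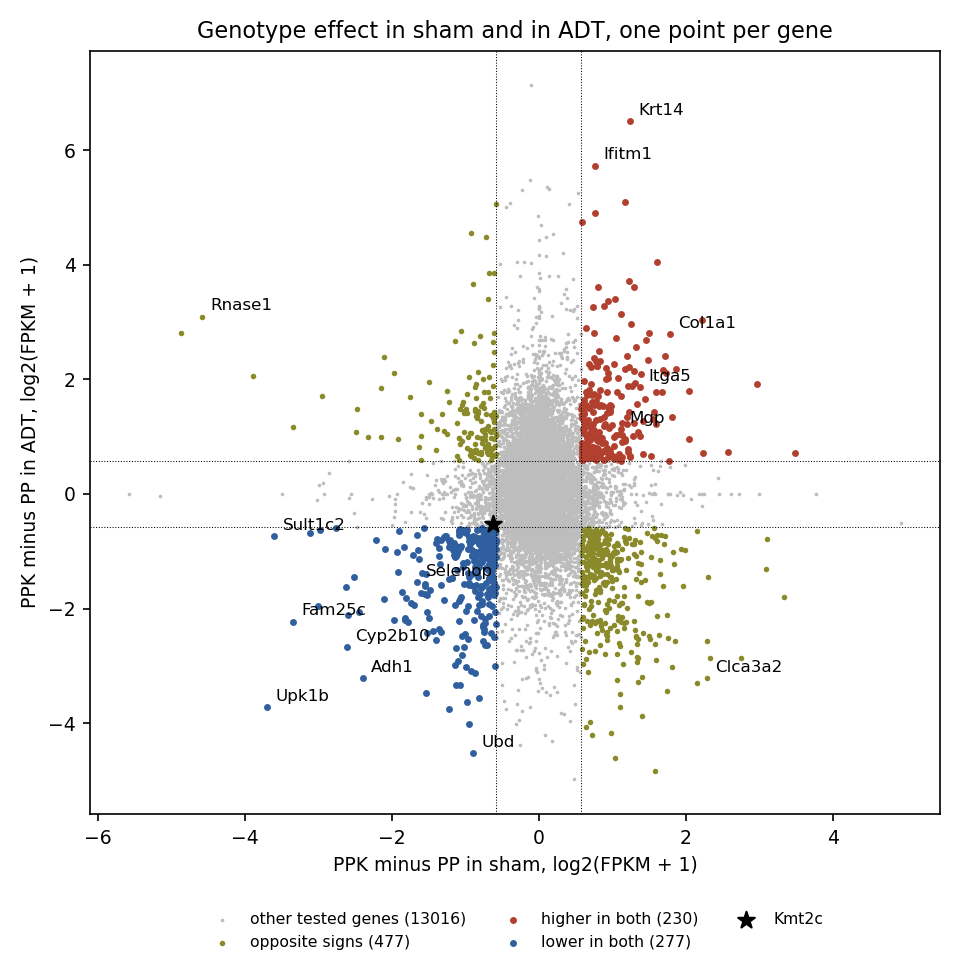
PPK minus PP on the log2(FPKM + 1) scale in sham (x axis) and in ADT (y axis), one point per tested gene, with dotted lines at 0.58 on both sides of 0. The 230 genes higher in both lie in the upper right, the 277 lower in both in the lower left, and the 477 of opposite sign in the other 2 corners, while Kmt2c (star) lies at the edge of the lower left corner.

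Among the 507 genes the difference was larger in ADT for 360 and larger in sham for 147. The median of the higher genes was 0.83 in sham and 1.21 in ADT, and that of the lower genes -0.87 and -1.21, beside -0.02 and 0.05 over all tested genes. Both differences reached 1, a doubling of FPKM + 1, in 123 genes, and both reached 2 in 7. In 176 genes the sham and ADT differences lay within 0.25 of each other. The PPK and PP libraries did not overlap in either setting for 486 of the 507, and 441 passed limma in both contrasts. Over all tested genes 26.2% did not overlap in 1 direction in both settings and 21.6% passed limma in both. Since the rule chose on these contrasts, nothing is read from these counts. Without each library in turn, 335 of the 507 (137 higher, 198 lower) met the rule every time.

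Levels set a limit on how many of these genes can be compared in full. A mean of 5 FPKM or more in at least 1 group was reached by 146 higher and 211 lower genes. In PP, 64 of the higher genes reached 1 FPKM in no library, and in PPK, 36 of the lower genes did not. These genes passed the filter on low values only through the genotype in which they were high. Of the lower genes, 125 had a mean under 1 FPKM in PPK ADT and 50 in PPK sham. Protein-coding genes made up 174 of the higher and 253 of the lower genes.

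The largest difference of the same size in both settings belonged to Upk1b, which encodes a uroplakin, a membrane protein of the bladder lining. Upk1b (ENSMUSG00000049436, chromosome 16, 38773184 to 38800328, GRCm38) had levels of 62.7 and 61.0 FPKM in PP sham against 4.15 and 3.54 FPKM in PPK sham. After ADT they were 27.6 and 28.5 FPKM (PP) against 1.14 and 1.25 FPKM (PPK). The differences were -3.70 ± 0.072 and -3.73 ± 0.072, nearly equal although the level in PP had fallen by 1.11 on the log2 scale after ADT. Upk1a, which encodes a second uroplakin, was at 43.0 and 42.0 FPKM in PP sham, 15.5 and 14.6 in PPK sham, 59.2 and 60.7 in PP ADT, and 10.6 and 10.6 in PPK ADT. Both PPK groups were low for Upk1a, and its difference was -1.44 ± 0.042 in sham and -2.39 ± 0.042 in ADT. These 2 were the members among 5 tested genes of the urothelial list, and none of the 5 was higher in both. Upk3a differed by -0.51 ± 0.12 in sham, under 0.58 in size, and by -2.39 ± 0.12 in ADT. Upk2 went the other way in ADT (-0.46 ± 0.25 and 0.66 ± 0.25), and Upk3bl was listed at 0 in all libraries but PPK ADT (1.84 and 2.14 FPKM).

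Among the named lower genes, Adh1, Cyp2b10, Sult1c2 and Ggt1 encode enzymes. Adh1, an alcohol dehydrogenase that also oxidises retinol, was at 41.8 and 40.7 FPKM in PP sham, 6.76 and 7.26 in PPK sham, 71.8 and 70.9 in PP ADT, and 6.64 and 6.91 in PPK ADT. The 4 PPK libraries lay within 6.64 to 7.26 FPKM whatever the treatment, and the genotype difference was -2.40 ± 0.047 in sham and -3.22 ± 0.047 in ADT. Cyp2b10, a cytochrome P450 that oxidises drugs, was at 38.6 and 39.7, at 5.25 and 5.86, at 13.7 and 14.6, and at 1.36 and 1.36 FPKM in the same order of groups. Its differences, -2.62 ± 0.065 and -2.68 ± 0.065, were nearly equal. It was the 1 lower member among 21 tested cytochrome P450 genes, of which 3 had opposite signs. Sult1c2, a sulfotransferase, had by contrast most of its difference in sham (18.6 and 18.1 in PP against 0.752 and 0.453 FPKM in PPK) and less in ADT (5.60 and 5.20 against 2.84 and 2.81). Ggt1, which cleaves extracellular glutathione, differed by -1.13 ± 0.11 and -1.09 ± 0.11.

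In the list of glutathione and detoxification genes, 3 of 25 tested members were lower in both (Gsta3, Gstm5 and Sult1c2) and none was higher. The median of the list was -0.12 in sham and 0.03 in ADT. Over all 14000 tested genes, 1.64% were higher and 1.98% lower in both, and list counts below can be read beside these shares. Me1, the malic enzyme that supplies NADPH to fatty acid synthesis, was the 1 member among 23 tested genes of fatty acid synthesis. Its sham difference of -0.59 ± 0.043 fell to -0.56 without PP sham replicate A and to -0.57 without PPK sham replicate B, outside the rule. None of 24 genes of cholesterol synthesis and none of 18 of fatty acid oxidation met the rule.

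Some gene families, chosen by symbol after the values had been seen, had several lower members. Of 12 tested ectonucleotidase genes, whose products break down extracellular nucleotides, 4 were lower in both and none higher: Enpp1, Enpp3, Entpd2 and Entpd3. Entpd3 was at 12.2 and 12.7 FPKM in PP sham, 2.74 and 2.93 in PPK sham, 6.81 and 6.46 in PP ADT, and 0.953 and 1.40 in PPK ADT, with differences of -1.81 ± 0.11 and -1.82 ± 0.11. Entpd2 was also nearly equal in both settings, at -0.62 ± 0.069 and -0.61 ± 0.069. Of 8 tested P2 receptor genes, which encode receptors for extracellular nucleotides, P2rx2, P2ry2 and P2ry6 were lower in both. For P2ry2 the PP ADT pair was wide, at 6.0 and 3.02 FPKM, against 1.13 and 1.37 in PPK ADT.

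Among 189 tested solute carriers, the membrane transporters of ions and metabolites, 10 were lower in both and 1 was higher. Slc40a1, the iron exporter ferroportin, was at 21.4 and 20.8 FPKM in PP sham, 8.82 and 9.22 in PPK sham, 26.9 and 24.9 in PP ADT, and 2.33 and 2.49 in PPK ADT. Its difference was -1.14 ± 0.059 in sham and -2.98 ± 0.059 in ADT. Of 8 tested claudins, which seal tight junctions, Cldn8 and Cldn10 were lower in both. Cldn8 was at 33.0 and 34.9 FPKM in PP sham, 5.52 and 5.30 in PPK sham, 15.4 and 14.5 in PP ADT, and 3.28 and 2.41 in PPK ADT. Each PPK library was thus below every PP library for Cldn8 and for Slc40a1. Aqp5, a water channel, and Slc40a1 were the lower members among 22 tested ion and water transport genes.

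Signalling and transcription genes were also among the lower ones. Id1, an inhibitor of basic helix-loop-helix factors and a target of BMP signals, was at 189 and 187 FPKM in PP sham, 31.7 and 27.6 in PPK sham, 56.5 and 59.0 in PP ADT, and 16.7 and 19.4 in PPK ADT. The difference was -2.63 ± 0.085 in sham and -1.63 ± 0.085 in ADT, and Id1 was the 1 member among 19 tested genes of Wnt, Notch and TGF-beta signalling. Kitl, the ligand of the receptor Kit, was named after its values had been seen. It was at 11.5 and 11.7 FPKM in PP sham, 2.63 and 2.69 in PPK sham, 10.8 and 10.2 in PP ADT, and 1.35 and 1.53 in PPK ADT (differences -1.78 ± 0.067 and -2.24 ± 0.067). After ADT with age Kitl fell by 0.59 ± 0.067 in PPK, and its change in PP was -0.13 ± 0.067. Such single-genotype effects share libraries with the genotype differences of the rule, so those of single genes are given as a description. Spry1, a feedback inhibitor of growth factor receptors, differed by -1.07 ± 0.099 and -1.84 ± 0.099.

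Transcription factors named after their values had been seen include Gata2, Pparg, Foxq1 and Nr2f2. Foxq1, a forkhead factor, was at 41.4 and 38.8 FPKM in PP sham, 17.5 and 17.2 in PPK sham, 32.0 and 32.3 in PP ADT, and 16.4 and 15.3 in PPK ADT. All 4 PPK libraries of Foxq1 lay within 15.3 to 17.5 FPKM, with differences of -1.16 ± 0.050 and -0.98 ± 0.050. Gata2, a zinc finger factor that cooperates with the androgen receptor, was at 18.4 and 12.2 FPKM in PP sham, 4.66 and 4.46 in PPK sham, 3.57 and 3.55 in PP ADT, and 0.378 and 0.300 in PPK ADT. Pparg, a nuclear receptor of fat metabolism, differed by -0.77 ± 0.060 and -1.86 ± 0.060, and Nr2f2, an orphan nuclear receptor, by -0.67 ± 0.078 and -1.22 ± 0.078. Hopx, a small homeodomain protein, was nearly equal in both settings at -1.14 ± 0.095 and -1.10 ± 0.095.

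Of 23 tested immediate early genes, which respond within minutes to stimulation and to tissue handling, 4 were lower in both, none was higher, and 2 had opposite signs. The 4 were Fos, Ier2, Klf2 and Egr2, and the median of the list was -0.39 in sham and -0.43 in ADT. Fos, a subunit of the AP-1 factor, was at 854 and 839 FPKM in PP sham, 397 and 411 in PPK sham, 321 and 322 in PP ADT, and 204 and 217 in PPK ADT. The ADT difference of Fos, -0.61 ± 0.035, was -0.56 without PPK ADT replicate A. Ier2 differed by -0.90 ± 0.030 and -0.81 ± 0.030. Egr2, a zinc finger factor, rested on a wide PP sham pair (9.31 and 25.3 FPKM), and its ADT difference of -0.60 ± 0.39 was -0.57 without PP ADT replicate B and -0.51 without PPK ADT replicate A.

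The named lower genes Ctse, Tff3 and Mmp7 had their highest level in PP sham, as did 201 of all 277 lower genes. The rule sets PP above PPK in both settings, so nothing is read from this count. Ctse, an intracellular aspartic protease, was at 85.1 and 82.1 FPKM in PP sham, 13.4 and 12.6 in PPK sham, 4.79 and 4.51 in PP ADT, and 0.215 and 0.415 in PPK ADT. Tff3, a trefoil peptide secreted with mucus, was at 192 and 179, at 84.0 and 84.7, and at 8.52 and 9.64 FPKM in the first 3 groups, and was listed at 0 in both PPK ADT libraries. Mmp7, an epithelial matrix protease, was at 682 and 695, at 412 and 408, at 230 and 237, and at 44.0 and 45.2 FPKM in the 4 groups. Each of these was lower in PPK at both treatments and lower after ADT in both genotypes. Mmp7 was the 1 lower member among 18 tested prostate secretory genes, and Dpp4, a luminal surface peptidase (-1.72 ± 0.12 and -1.07 ± 0.12), the 1 member among 18 luminal genes. None of the 7 tested kallikreins and none of the 7 seminal vesicle genes met the rule.

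Other large differences were in genes whose sham and ADT values were unequal. Ubd, a ubiquitin-like protein, was at 62.6 and 61.7 FPKM in PP sham, 32.2 and 33.6 in PPK sham, 68.9 and 65.7 in PP ADT, and 1.79 and 2.15 in PPK ADT. Krt23, an acidic keratin, was at 291 and 287, 148 and 148, 463 and 459, and 26.6 and 28.9 FPKM in the same groups. For both the PPK ADT pair was far below the rest, with differences of -0.90 ± 0.064 (Ubd) and -0.96 ± 0.039 (Krt23) in sham and of -4.52 ± 0.064 and -4.01 ± 0.039 in ADT. Anxa13, an epithelial annexin, had the larger difference in sham (46.8 and 42.8 against 5.64 and 3.90 FPKM), since PP ADT was already at 3.09 and 3.08. Fam25c was at 37.8 and 43.2, at 3.41 and 2.74, at 12.2 and 11.7, and at 1.86 and 1.67 FPKM. Lyz1 cannot be parted with certainty from its near-identical copy Lyz2: it was listed at 0 in both PPK sham libraries and at 12.9 and 11.7 FPKM in PP ADT.

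**Figure D2:**
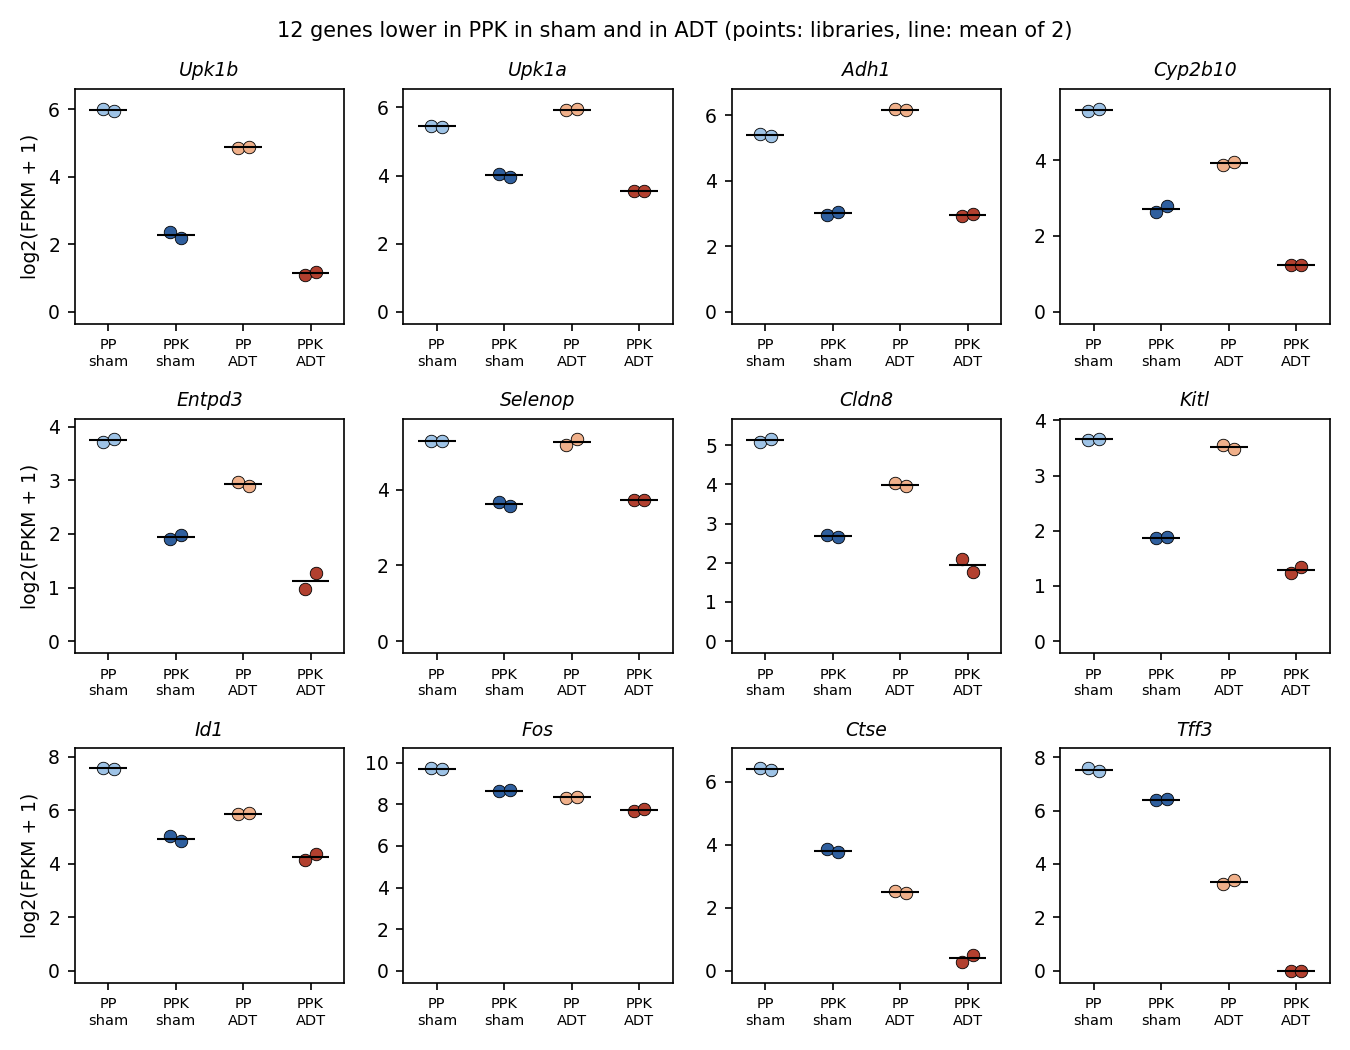
log2(FPKM + 1) of 12 genes lower in PPK in both settings, with 1 point per library and a line at the mean of 2 libraries, for PP sham, PPK sham, PP ADT and PPK ADT. PPK lies below PP at each treatment in every panel, at like distances for Upk1b, Cyp2b10, Entpd3 and Selenop, while Ctse and Tff3 also step down from sham to ADT.

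The largest mean difference among the higher genes was that of Krt14, the basal keratin. Krt14 (ENSMUSG00000045545, chromosome 11, 100203162 to 100207548, GRCm38) was at 8.38 and 9.17 FPKM in PP sham, 21.7 and 22.4 in PPK sham, 14.3 and 17.2 in PP ADT, and 1504 and 1542 in PPK ADT. The difference was 1.24 ± 0.082 in sham and 6.51 ± 0.082 in ADT. Krt17, a keratin of basal and stressed epithelium, was at 30.5 and 29.3, 51.7 and 55.2, 143 and 146, and 422 and 416 FPKM (differences 0.82 ± 0.040 and 1.53 ± 0.040). Lamb3, a chain of the basement membrane laminin of basal cells, differed by 0.75 ± 0.080 and 1.11 ± 0.080. These 3 were the members among 17 tested basal genes, and none of the 17 was lower in both. Krt5, a defining basal gene, was not among them, at -0.39 in sham and 5.07 in ADT.

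The summed level of the basal list was 1037 and 1031 FPKM in PP sham, 1538 and 1553 in PPK sham, 1167 and 1182 in PP ADT, and 6390 and 6452 in PPK ADT. That of the luminal list was 8937 to 9929 FPKM in the sham groups, 10965 and 10934 in PP ADT, and 5393 and 5395 in PPK ADT. Dsg3, a desmosome cadherin of stratified epithelium, was the 1 member among 23 tested squamous genes (0.80 ± 0.062 in sham, 3.60 ± 0.062 in ADT). Gja1, the connexin of many gap junctions, was at 1.05 and 1.22, 4.38 and 3.66, 4.80 and 5.02, and 76.5 and 76.6 FPKM. Lgals7, a galectin of stratified epithelium, was at 4.46 and 5.64, 8.74 and 9.84, 18.6 and 16.3, and 549 and 548 FPKM. For Gja1 and Lgals7 alike, PPK sham was above PP sham, and PPK ADT stood far above all other libraries.

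Matrix genes gave the highest counts of higher members among the lists. Of 22 tested collagen genes, 13 were higher in both settings and none was lower, with medians over the 22 of 0.66 in sham and 1.28 in ADT. Of 17 tested genes of the matrix and mesenchymal list, 8 were higher in both (Vim, Fn1, Sparc, Spp1, Itga5, Mmp2, Tnc and Timp1) and none was lower, with medians of 0.88 and 1.71. In ADT alone, 14 of the 17 were at least 0.58 higher in PPK and 2 at least that much lower. The summed level of this list went another way and was lowest in PPK ADT. It was 692 and 694 FPKM in PP sham, 882 and 871 in PPK sham, 1353 and 1358 in PP ADT, and 522 and 518 in PPK ADT. Of 10 tested fibroblast markers, 8 were higher in both. These 8 were under 1 FPKM in every PP library and passed the filter only through PPK, so nothing is read from this share. Collagens were grouped by symbol after the values had been seen. Their members include Col1a1, Col1a2, Col3a1, Col6a1 and Col6a2, which are among these fibroblast markers. Nothing is therefore read from the collagen share or medians either.

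Col1a1, a chain of fibrillar type I collagen, was at 0.844 and 0.888 FPKM in PP sham, 5.63 and 5.24 in PPK sham, 0.282 and 0.125 in PP ADT, and 7.68 and 6.91 in PPK ADT. Sparc, a matrix glycoprotein, was at 2.54 and 2.88, 8.93 and 9.98, 0.836 and 0.740, and 11.9 and 11.1 FPKM. Both were low in PP at either treatment and higher in all 4 PPK libraries, with Col1a1 differences of 1.79 ± 0.098 and 2.79 ± 0.098. Itga5, the fibronectin receptor chain, was at 1.6 and 2.13, 6.64 and 6.20, 5.33 and 5.96, and 23.5 and 22.8 FPKM (1.38 ± 0.10 and 1.87 ± 0.10). Tnc, tenascin C, differed by 1.46 ± 0.10 and 2.69 ± 0.10, and Spp1, osteopontin, by 1.69 ± 0.11 and 2.16 ± 0.11. Col7a1, the anchoring fibril collagen, was in by a small margin in sham (0.58 ± 0.095) and was at 0.50 there without PP sham replicate A and 0.57 without PPK sham replicate A. In ADT its difference was 4.75 ± 0.095.

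Of the 14 listed fibroblast markers 8 are themselves members, so their summed level is not separate from the rule, and nothing is read from it. Markers of smooth muscle and endothelium moved with genotype in part. The summed level of the 14 fibroblast markers was 7.68 and 8.45 FPKM in PP sham, 25.7 and 25.1 in PPK sham, 6.23 and 6.06 in PP ADT, and 55.5 and 57.2 in PPK ADT. The fibroblast receptor gene Pdgfrb moved with them at low level, at 0.0509 and 0.147, 0.555 and 0.700, 0.0531 and 0.0540, and 0.688 and 0.527 FPKM. Pdgfra was at 0.179 and 0.118, 0.353 and 0.225, 0.0657 and 0.0468, and 0.438 and 0.482 FPKM, and Dcn, a fibroblast proteoglycan, was at 3.06 to 3.75 FPKM in all but PPK ADT (8.56 and 8.84). Of 9 smooth muscle markers 3 passed the filter, and 1, the smooth muscle actin gene Acta2, was higher in both (1.22 ± 0.11 and 1.89 ± 0.11). Tagln differed by 0.41 ± 0.12 and 1.65 ± 0.12, and Mylk the other way, by -0.33 ± 0.098 and -0.53 ± 0.098. The 9 markers summed to 2.94 and 3.16, 6.65 and 6.22, 3.48 and 3.01, and 12.7 and 12.4 FPKM, and the 11 endothelial markers to 4.49 and 4.27, 8.43 and 8.46, 1.77 and 1.95, and 3.80 and 3.32 FPKM. None of the 4 endothelial markers that passed the filter met the rule, and their median difference was 0.54 in sham and 0.25 in ADT. None of the 14 fibroblast markers was at 0 in every library. The part of RNA from these cells in the matrix genes was not tested.

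Some higher genes had equal differences in both settings. Mgp, matrix Gla protein, an inhibitor of calcification, was at 6.19 and 6.84 FPKM in PP sham, 14.0 and 16.8 in PPK sham, 16.1 and 16.8 in PP ADT, and 34.3 and 40.4 in PPK ADT. Serpinh1, the collagen chaperone of the endoplasmic reticulum, was at 6.33 and 5.16, 16.3 and 12.8, 16.3 and 14.9, and 36.9 and 38.2 FPKM. In both, PPK sham and PP ADT stood at like levels and PPK ADT above them, with differences of 1.12 ± 0.11 and 1.13 ± 0.11 for Mgp and 1.20 ± 0.13 and 1.22 ± 0.13 for Serpinh1. Vdr, the vitamin D receptor, and Calcb, a calcitonin gene-related peptide, were named after their values had been seen. Vdr was at 1.56 and 1.36, 4.42 and 4.93, 2.99 and 2.89, and 8.75 and 9.27 FPKM (1.21 ± 0.082 and 1.34 ± 0.082). Kctd12 also appeared equal, but its libraries read 6.68 and 0 in PP sham and 0 and 10.7 in PPK ADT. Without PP sham replicate B its sham difference was 0.21, and without PPK ADT replicate B both ADT groups were listed at 0.

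A few secreted defence genes were higher in both. Ltf, the iron-binding protein lactoferrin, was at 98.5 and 102 FPKM in PP sham, 202 and 207 in PPK sham, 437 and 446 in PP ADT, and 807 and 766 in PPK ADT (1.02 ± 0.034 and 0.83 ± 0.034). Ltf, S100a8 and S100a9 were the members among 16 tested mucosal defence genes, beside 1.64% of all tested genes, and 7 of the 16 had opposite signs. S100a8 and S100a9, the subunits of calprotectin, are abundant in neutrophils as well as in stressed epithelium. S100a9 was at 0.251 and 0, 4.0 and 2.11, 3.34 and 2.88, and 9.45 and 9.31 FPKM. Of 12 neutrophil markers only S100a8 and S100a9 passed the filter, and the summed level of all 12 was 1.06 and 1.01, 7.81 and 5.70, 5.83 and 6.18, and 14.2 and 14.0 FPKM. Elane was at 0 in every library and Mpo at most 0.0141 FPKM, but others differed between genotypes at low level. In sham, Csf3r was at 0 and 0.0402 FPKM in PP and 0.447 and 0.424 in PPK, and Ly6g at 0.0824 and 0.389 against 0.970 and 0.840. In ADT, Csf3r was the other way round (0.493 and 0.843 in PP, 0.217 and 0.149 in PPK) and Ly6g was at most 0.0525 FPKM. In ADT, Cxcr2 was at 0.0638 and 0.0581 FPKM in PP and 0.958 and 1.03 in PPK, and Camp was listed at 0 in all libraries but PPK ADT (1.15 and 0.852). The part of neutrophil RNA in these genes was not tested. In the complement list, 2 of 12 tested genes were higher in both (C1s1 and Serping1), 1 was lower (Cfi), and 5 had opposite signs.

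Genes of the interferon list did not share this pattern, while the Ifitm genes did. Of 40 tested interferon response genes none met the rule, and 30 were past 0.58 with opposite signs, higher in sham and lower in ADT. Of 19 antigen presentation genes none met it and 11 had opposite signs. By contrast 3 of 4 tested Ifitm genes, grouped by symbol after the values had been seen, were higher in both. Their products sit in membranes and hinder virus entry. Ifitm3 was at 237 and 230 FPKM in PP sham, 526 and 525 in PPK sham, 760 and 794 in PP ADT, and 1439 and 1531 in PPK ADT (1.17 ± 0.037 and 0.93 ± 0.037). Ifitm1 was at 0.557 and 0.987, 1.63 and 2.38, 5.79 and 8.15, and 401 and 433 FPKM (0.76 ± 0.19 and 5.73 ± 0.19).

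Both tested metallothioneins, which bind zinc and copper and were also picked after their values had been seen, were higher in PPK while lower after ADT. Mt2 was at 115 and 116 FPKM in PP sham, 219 and 218 in PPK sham, 14.8 and 16.8 in PP ADT, and 63.6 and 69.5 in PPK ADT. Mt1 was at 65.8 and 60.3, 94 and 103, 11.1 and 11.1, and 36.5 and 33.2 FPKM. The Mt2 differences were 0.91 ± 0.065 and 2.01 ± 0.065, and those of Mt1 0.64 ± 0.070 and 1.56 ± 0.070. Both genes fell after ADT with age, by 2.25 ± 0.046 for Mt2 and 1.94 ± 0.049 for Mt1 on the log2 scale (limma adjusted p = 1.37e-07 and 3.4e-07).

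**Figure D3:**
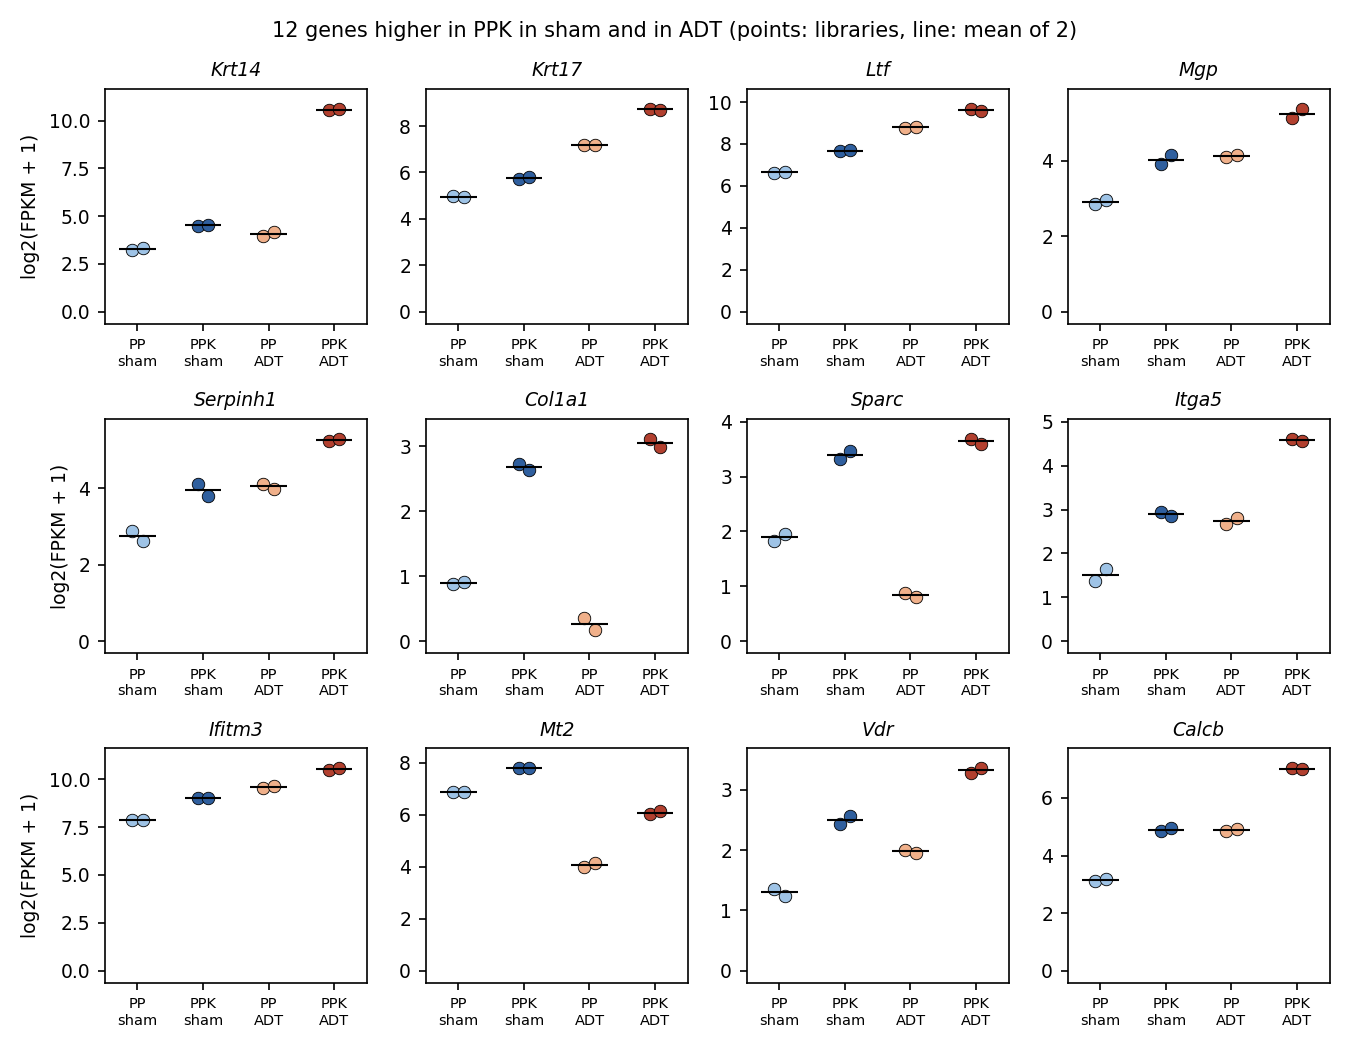
log2(FPKM + 1) of 12 genes higher in PPK in both settings, drawn as for the lower genes. PPK lies above PP at each treatment in every panel, and PPK ADT is the highest group in all panels but that of Mt2, where both ADT groups lie below both sham groups.

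Small RNA genes and pseudogenes among the higher set are less certain. Small RNAs made up 10.4% of the higher genes, 2.17% of the lower genes and 3.11% of all tested genes. Of 30 small RNA genes in either set, 26 overlap another tested gene, whose reads short gene models can take up. In 21 of the 30 the PPK and PP libraries did not overlap in either setting. No like shares for all tested small RNA genes are given, and the rule chose on the genotype differences, so nothing is read from these 2 counts. Of 120 tested ribosomal protein pseudogenes 5 were higher in both and none was lower. Rps15a-ps6 was at 4.08 and 3.25 FPKM in PP sham, 13.6 and 12.8 in PPK sham, 3.08 and 2.07 in PP ADT, and 55.8 and 58.8 in PPK ADT. Its parent Rps15a differed by -0.10 in sham and 1.37 in ADT, and Rps13, parent of the member Rps13-ps1, by -0.33 and 1.17. FPKM cannot part such copies from their parents with certainty.

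Other fixed lists held few members or none. None of 24 cell cycle genes, 17 genes of Kmt2 complexes and 20 chromatin regulators met the rule. Among 12 tested macrophage markers Mrc1, a mannose receptor, was lower in both (-0.68 ± 0.072 and -1.51 ± 0.072), while the summed level of the 20 listed was 92.4 and 92.4 FPKM in PP sham, 184 and 183 in PPK sham, 176 and 182 in PP ADT, and 71.0 and 71.6 in PPK ADT. Herpud1, a gene of the endoplasmic reticulum stress response, was the 1 lower member of 21 tested in its list. Car12, a membrane carbonic anhydrase, was the 1 higher member of 24 hypoxia and glycolysis genes. Of 22 chemokines Cxcl14 and Ccl2 were higher in both and 10 had opposite signs.

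The response to ADT with age was not part of the rule. Its mean over both genotypes is independent of both genotype differences in this balanced design and was tested with limma over all 14000 genes. Of the 230 higher genes, 159 were higher after ADT, 18 were lower and 53 did not pass, with a median of 0.59. Of the 277 lower genes, 188 were lower after ADT, 32 were higher and 57 did not pass, with a median of -0.71. Over all tested genes 29.6% were higher and 31.7% lower after ADT, with a median of -0.02. The member counts include the 64 higher and 36 lower genes that passed the filter only through 1 genotype. In the other genotype these were under 1 FPKM, so their mean can rest mostly on the genotype in which they were high. For these genes the counts are not independent of the selection. At a mean of at least 5 FPKM over all libraries, 79 of 97 higher genes were higher and 8 lower after ADT, and 112 of 144 lower genes were lower and 12 higher. No share over all genes at that level is given beside these counts, so nothing is read from them.

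This mean also takes in genes whose genotype difference is larger after ADT, as most members' was, so the effect was taken in each genotype as well, a split added after the data had been seen. In PP alone, 105 of the 230 higher genes were higher after ADT and 26 lower (median 0.35), and 150 of the 277 lower genes were lower and 43 higher (median -0.45). The shares over all genes in PP were 19.1% higher and 25.1% lower, with a median of -0.07. In PPK alone, 157 of the higher genes were higher and 15 lower (median 0.78), and 193 of the lower genes were lower and 19 higher (median -0.83). The shares over all genes in PPK were 31.9% and 30.7%, with a median of 0.00. The single-genotype effects share libraries with the genotype differences, so they are given side by side with no further comparison.

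**Figure D4:**
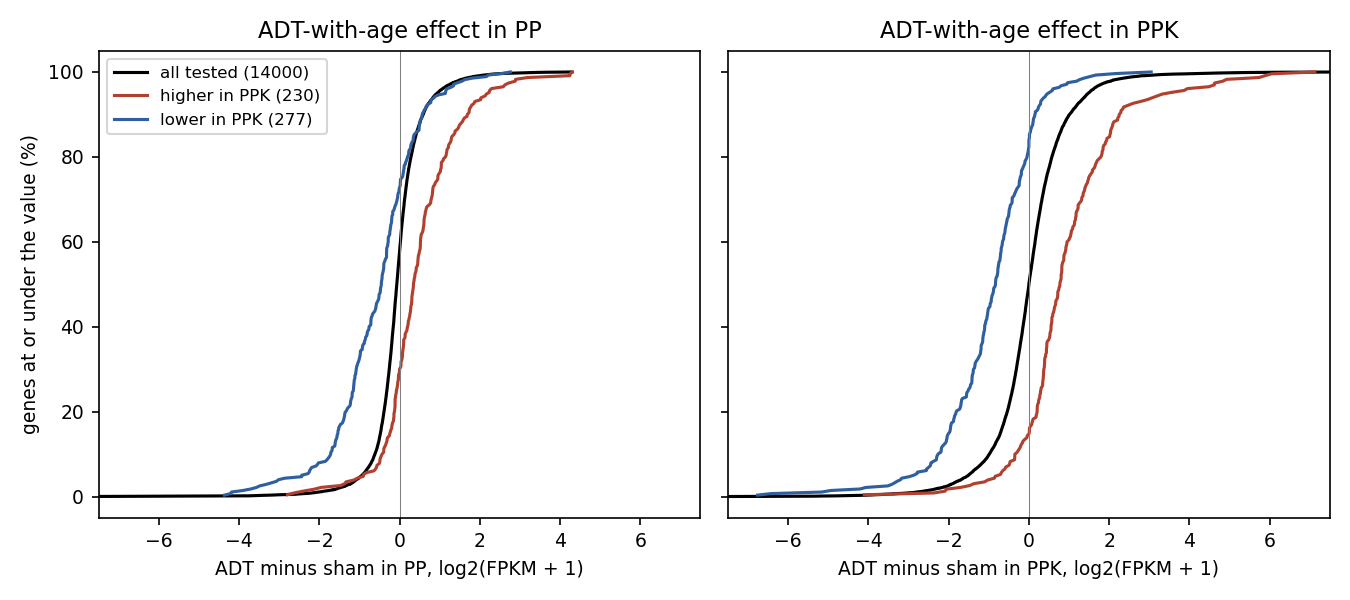
Share of genes (y axis, percent) at or under each ADT minus sham value on the log2(FPKM + 1) scale (x axis), in PP (left) and in PPK (right), for all 14000 tested genes, the 230 higher and the 277 lower genes. In both panels the curve of the higher genes lies to the right of that of all genes over most of its length and the curve of the lower genes to the left, with medians of 0.35 and -0.45 in PP and 0.78 and -0.83 in PPK.

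Single genes show both kinds of response to ADT. Cxcl13, a chemokine of B cells, was at 2.72 and 2.85 FPKM in PP sham, 5.49 and 5.19 in PPK sham, 72.7 and 69.8 in PP ADT, and 368 and 381 in PPK ADT. Its mean rise was 5.07 ± 0.032 (limma adjusted p = 1.41e-09). Car12, with a wide PP ADT pair of 97.0 and 52.2 FPKM, rose by 4.06 ± 0.19 (limma adjusted p = 4.88e-06), and Ifi202b, whose family has near-identical copies, by 4.61 ± 0.026 (limma adjusted p = 1.37e-09). Fcgbp, a mucus protein, was at 239 and 237, 158 and 156, 10.9 and 10.3, and 0.505 and 0.408 FPKM, and fell by 5.56 ± 0.033 (limma adjusted p = 1.41e-09). B4galnt2, a glycosyltransferase, fell by 4.43 ± 0.048 (limma adjusted p = 1.42e-08). Sval1, which encodes a seminal vesicle antigen-like protein, was at 43.3 and 39.8, at 14.4 and 17.2, and at 0.548 and 2.51 FPKM in the first 3 groups, and was listed at 0 in PPK ADT.

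Among members with a mean of at least 10 FPKM and without predicted models, Selenop, Upk1a and Hspa2 were among those with mean ADT effects nearest 0. Selenop, the secreted selenium carrier, was at 37.6 and 38.0 FPKM in PP sham, 11.8 and 10.9 in PPK sham, 35.5 and 39.6 in PP ADT, and 12.2 and 12.3 in PPK ADT. It differed by genotype at -1.65 ± 0.063 and -1.54 ± 0.063, and its ADT effects were -0.01 ± 0.063 for PP and 0.10 ± 0.063 for PPK. The 4 PPK libraries all lay below the 4 PP libraries whatever the treatment. Upk1a, whose mean effect was 0.01 ± 0.030, rose by 0.49 ± 0.042 in PP and fell by 0.46 ± 0.042 in PPK, so its mean hides 2 opposite changes. Hspa2, a heat shock protein, behaved alike, at 0.23 ± 0.067 and -0.20 ± 0.067, and its sham genotype difference of -0.61 was -0.54 without PP sham replicate B and -0.55 without PPK sham replicate B. Ypel5 was also near 0, but its PPK pairs were wide (13.8 and 5.49, 5.04 and 14.7 FPKM). Its genotype differences were -0.08 in sham without PPK sham replicate B and -0.09 in ADT without PPK ADT replicate A.

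Promoter sequence was not used by the rule either. RefSeq promoters of GRCm38.p6, 300 bases from 250 before to 50 after the start, were matched for 133 higher genes, 198 lower genes and 9351 tested genes. The ratio of observed to expected CpG was under 0.4 in 41.4% of the higher, 38.4% of the lower and 15.5% of all tested promoters. Its median was 0.486, 0.594 and 0.768. The 281 genes past 0.58 with opposite signs had 48.4% under 0.4, those past it in sham only 35.5%, in ADT only 21.2% and in neither 8.36%. Low CpG content was thus shared with the genes of opposite sign and is not particular to the genes described here.

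**Figure D5:**
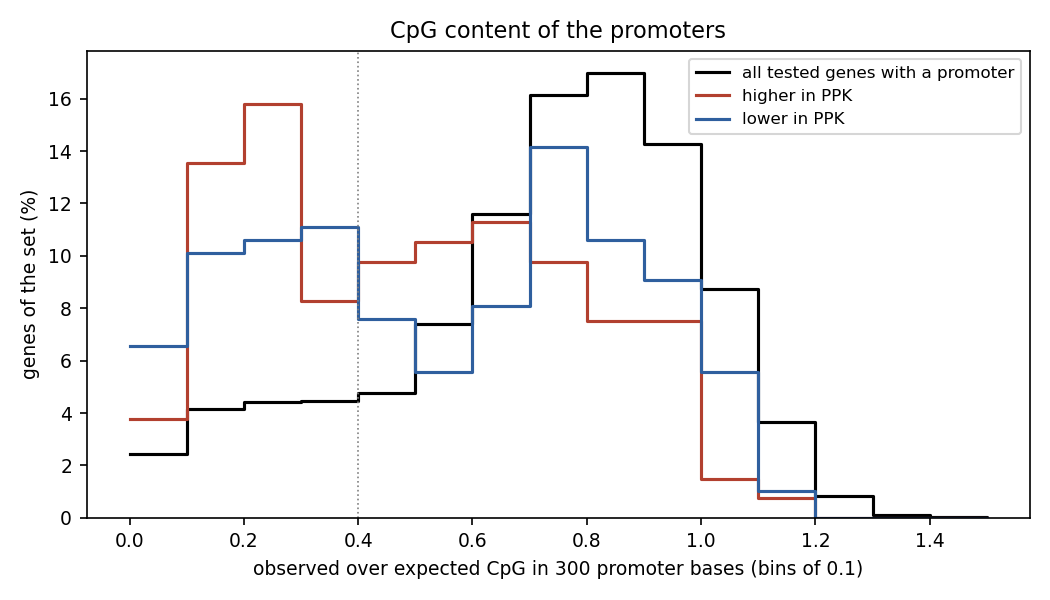
Share of promoters (y axis, percent of each set) by ratio of observed to expected CpG in bins of 0.1 (x axis), for all tested genes with a promoter, the higher and the lower genes. To the left of the dotted line at 0.4 lie 15.5% of all, 41.4% of the higher and 38.4% of the lower promoters.

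The TATA box, searched as TATAAA on both strands, was in 20.3% of higher, 13.1% of lower and 7.65% of all promoters. Starting 20 to 40 bases before the start it was in 7.52%, 7.07% and 1.74%. The genes of opposite sign had 16.7% and 6.76%. An androgen receptor half-site (TGTTCT) was in 9.77% of higher, 18.7% of lower and 12.3% of all promoters, and the AP-1 site (TGAGTCA) in 6.02%, 9.60% and 3.87%. The ETS site (CCGGAAGT) was in none of the higher, 2.02% of the lower and 8.51% of all promoters. The genes of opposite sign had the half-site in 16.0%, the AP-1 site in 8.19% and the ETS site in 1.78%. The shares of the lower genes at these sites are thus not particular to them. Among other sites searched, the forkhead site (TGTTTAC) was in 6.77% of higher, 3.54% of lower, 2.61% of all and 2.85% of opposite-sign promoters. The sterol response site (TCACNCCAC) was in 3.76%, 1.01%, 1.04% and 1.42%. In the higher genes these were 9 and 5 promoters, and nothing is read from them. All sites given here are matches of letters on either strand, and they say nothing of binding.

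Among the genes named by the fixed rules, 3 carry TATAAA at that distance, all of them lower in PPK. Their 100 bases before the start are printed to show where it lies. Other members mentioned above carry it as well, among them Kitl (lower) and Vim and S100a8 (both higher), so the box is not particular to the lower genes. The promoter sequence is from RefSeq (GRCm38.p6), 5′ to 3′ on the gene's strand, with TATAAA and any AP-1 site in capitals.
Fam25c: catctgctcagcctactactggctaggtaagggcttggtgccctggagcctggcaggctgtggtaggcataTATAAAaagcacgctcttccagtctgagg
Mmp7: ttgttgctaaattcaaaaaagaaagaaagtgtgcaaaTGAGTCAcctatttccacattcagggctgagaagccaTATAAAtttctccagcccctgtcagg
Fos: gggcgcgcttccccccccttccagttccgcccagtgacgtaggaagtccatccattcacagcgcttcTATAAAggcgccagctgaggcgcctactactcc
These are chr14:34355394-34355493 on the minus strand, chr9:7691990-7692089 on the plus strand and chr12:85473790-85473889 on the plus strand. The first T of TATAAA lies 29, 26 and 33 bases before the start, and the AP-1 site of Mmp7 begins 63 bases before it. The CpG ratio of the whole promoter is 0.09 for Fam25c, 0.09 for Mmp7 and 0.77 for Fos, so the pair of low-CpG promoters and the CpG-rich one share the box.

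Some members were neighbours on a chromosome. In the order of tested genes along the chromosomes, 69 of the 507 (13.6%) stood next to a member of the same direction, 37 higher and 32 lower, in 33 runs, 3 of which held 3 genes. No like share for all tested genes is given, so nothing is read from this count. The Ifitm run covers Ifitm2, Ifitm1 and Ifitm3 (chromosome 7, 140954837 to 141010770, GRCm38). Ifitm2 was at 75.0 and 72.3 FPKM in PP sham, 117 and 137 in PPK sham, 165 and 68.6 in PP ADT, and 521 and 549 in PPK ADT, with a wide PP ADT pair. The other runs of 3, Col3a1 with Gm47302 and Col5a2, and Mdk with Dgkz and Mir6999, each hold a short RNA model inside a longer member. Pairs included Mt2 and Mt1, Col6a2 and Col6a1, and Enpp1 and Enpp3, which are relatives of each other, and B4galt4 and Upk1b, which are not. B4galt4 (chromosome 16, 38742264 to 38769049) lies beside Upk1b on the opposite strand without overlap.

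Genes near the threshold were not sharply set off. Just inside were Gm5424 and Zfp52 on the higher side and Txndc16, Gm32461 and Tbc1d9 on the lower side. Zfp52 differed by 0.58 in sham and 0.78 in ADT. Just outside were Ptprs, Rpl38-ps2 and Lyz2 on the higher side and AC113491.1, Id3 and Txnip on the lower side. Id3, the relative of Id1, was at 59.6 and 54.1 FPKM in PP sham, 9.57 and 9.28 in PPK sham, 12.7 and 12.6 in PP ADT, and 8.06 and 8.23 in PPK ADT. Its differences were -2.47 in sham and -0.58 in ADT, where the value before rounding misses the threshold.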

How the data were processed

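RNA of sorted mouse prostate epithelium was measured in 8 libraries, 2 in each of 4 groups taken from the labels. Per the labels' protocols, RNA was purified with Trizol, and the TruSeq libraries kept the strand. The authors deposited FPKM values per gene, 1 table per library. Per the submitters' processing notes, FastQC 0.11.2 and the build mm10 were used, while the aligner, quantifier and annotation were not named in the sources used here. Summed FPKM ranged from 284015 to 333977. No counts are in the tables, so no counting interval is given.

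The tables were joined on 55335 identifiers, of which 55154 had a symbol in GENCODE M21. Genes with 1 FPKM in at least 2 libraries (14000) entered 1 limma fit (version 3.58.1, R 4.3.3) of log2(FPKM + 1) on the 4 groups, using its intensity trend, with 4 residual degrees of freedom and 2.4 from the prior. A call is a Benjamini-Hochberg adjusted p under 0.05 over all tested genes, two-sided. Values are ± SE of that fit, and differences on this scale understate changes of low genes. The fit was tested on simulated data. All other steps ran in Python 3.11.15 (pandas 2.3.3, numpy 2.4.6, matplotlib 3.10.9).

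The genes and lists were chosen with earlier results of these data known. Named were Kmt2c, and, among members with a mean of at least 5 FPKM in a group and without predicted models, the 10 with the largest mean difference and the 5 with the most equal differences (both at least 1) in each direction, up to 4 per list, 3 on each side of the threshold, and the largest and nearest-0 ADT effects. Other genes are marked as chosen after their values were seen, cell markers apart. Same-letter libraries deviated together at -0.00791 to 0.0566, so letters are no pairs. Alternatives were another pseudocount, filters, scalings, a replicate block, no trend, array weights, a 2-fold change and each library left out. Some items are not reported here.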

Additional observations from a re-analysis of the deposited data

Results flagged for a closer look

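The genes with the largest genotype differences of opposite sign are the counterpart of those described. PPK moved one way in both sham libraries and the other way in both ADT libraries, apart from Mir8114, whose PP and PPK libraries overlap in ADT. The difference between the sham and ADT effects was not tested here. Clca3a2, of a family of secreted chloride channel regulators with near-identical copies, was at 4.29 and 3.96 FPKM in PP sham, 23.8 and 24.1 in PPK sham, 69.9 and 68.3 in PP ADT, and 6.43 and 6.63 in PPK ADT, and its effect in ADT minus that in sham was -5.50. Clca1 of the same family gave -5.19, and Egr3, an immediate early factor, 4.50. Rnase1, a secreted ribonuclease, was at 90.3 and 89.6, 2.75 and 2.81, 0.516 and 0.616, and 12.2 and 12.6 FPKM and gave 7.68. For mt-Tg, a mitochondrial transfer RNA gene, the value was -5.61, with PPK sham at 8.32 and 25.9 FPKM. Mir8114 gave 7.68 as well, but its pairs disagree (124 and 0.101 FPKM in PPK sham, 167 and 0.0148 in PP ADT).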

How the results depend on the processing

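The number of genes meeting the rule, 230 higher and 277 lower, was 556 and 486 with a pseudocount of 0.1, 97 and 144 at a mean of at least 5 FPKM, and 55 and 68 at a threshold of 1 in both settings. It lay within 1.5 times the reported count with no filter, median-of-ratios scaling, quantile normalization and without each library (218 to 252 higher, 277 to 290 lower). The ADT counts (159 higher and 18 lower of the higher genes, 32 higher and 188 lower of the lower genes) were 79, 8, 12 and 112 at a mean of at least 5 FPKM, and 67, 6, 8 and 105 at a change of at least 1. In PP alone the 159 became 105, and in PPK alone the 32 became 19. Without each library they ranged over 144 to 152, 16 to 20, 27 to 31 and 182 to 189. With a replicate block they were 156, 17, 32 and 188, and the genotype calls over all genes were 3755 in place of 4000 in sham and 8182 in place of 8340 in ADT. The letters are not stated to mark pairs.

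Of 2931 values of named genes under these alternatives 2645 stayed within 1 SD or on their side of the threshold, 260 moved further, 96 of them with the pseudocount of 0.1, and 0 reversed, while 21 ADT calls were lost and 5 gained. The ADT calls of Serping1 (-0.20) and Cxcl14 (0.38) were lost under 10 and 11 alternatives. The number of libraries, 2 per group, limits every value, and low FPKM limits those of short and weak genes.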
